A study of Mus musculus with 14 samples.

Results

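The liver-enriched transcription factors are 9 genes, *Hnf4a*, *Hnf4g*, *Foxa1*, *Foxa2*, *Foxa3*, *Cebpa*, *Cebpb*, *Prox1* and *Onecut1*, followed here by name among the 28022 genes of a mouse RNA-seq count table. All 9 were found in the table. *Hnf4a* and *Foxa2* were present in all 8 libraries of converted cells, at mean levels of 164 to 208 and 68.9 to 79.3 counts per 1000000 (CPM). *Cebpa* rose in both kinds of 3D culture, *Prox1* was low beside both livers, and *Foxa1*, *Foxa3*, *Hnf4g* and *Onecut1* had 12 counts or fewer in each of these 8 libraries.

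These proteins act together in the liver. FOXA factors are pioneer factors that open liver chromatin in the foregut endoderm, HNF4A is a nuclear receptor that drives hepatocyte genes for lipoproteins, clotting and metabolism, and the C/EBP factors are leucine zipper proteins of hepatocyte metabolism and the acute phase response. PROX1 and ONECUT1 (also called HNF6) are homeodomain proteins of the hepatoblast, the common precursor of hepatocytes and bile duct cells. They bind each other's regulatory regions, and this cross-regulation becomes denser as the liver matures.

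RNA-seq was done on 14 libraries from 7 conditions of strain C57BL/6J, 2 libraries each. Fib are mouse embryonic fibroblasts. 2D-iHepSC are induced hepatic stem cells, made from such fibroblasts with lentiviruses that carry *Oct4* (*Pou5f1*) and *Hnf4a*, in 2D culture, and 2D-iHepSCiEC are the same cells grown in 2D with induced endothelial cells (iECs), made by giving *ETV2* to HF1, a human fibroblast line. 3D-iHA are spheroids of the hepatic cells in a collagen and Matrigel gel (taken here as the study's liver organoids) and 3D-iHEA are assembloids, such spheroids with iECs in the gel. Adult-Liver and Fetal-Liver are liver tissue, taken from young adult mice and from mid-gestation embryos according to the methods for tissue RNA.

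Several points limit these groups as models. Lentiviral *Hnf4a* is murine, so its reads and those of the cell's own gene cannot be told apart in a count per gene. The human cells of the co-cultures contribute only reads that align to mouse genes. As the study describes them, the flat cultures and the gels, with or without iECs, were kept in the same mixed medium with oncostatin M. Before the gel, spheroids formed in hepatic medium alone, and the gels were kept on an orbital shaker. The step from 2D to 3D thus joined spheroids, early medium, a gel and shaking, whose parts cannot be told apart. In bulk libraries, fewer cells of a type and less RNA per cell cannot be told apart. Every label reads replicate 1, so p-values measure the spread between the 2 libraries of a condition, which may be technical, and the second 3D-iHEA column carries no usable number.

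Total counts per library ranged from 20851489 to 35143325, and 3 counts, taken as the floor, corresponded to 0.0854 to 0.144 CPM. Of 9 hepatocyte markers, 9 were above 3 counts in both libraries of each liver, 2 to 5 in the cultures and 0 in Fib, with summed levels of 581000 to 620000 CPM in Adult-Liver, 11200 to 14000 in Fetal-Liver and 279 to 387 in the cultures. *Alb*, which encodes albumin, had 2 to 210 counts in the 8 culture libraries. Of 5 cholangiocyte (bile duct) markers and 5 intestinal epithelium markers, all were above 3 counts in each culture condition. The cholangiocyte sums were 1040 to 1450 CPM, and the intestinal sums were higher in 3D, at 218 to 233 CPM in 2D-iHepSC against 619 to 645 in 3D-iHA and 130 to 134 in 2D-iHepSCiEC against 656 to 680 in 3D-iHEA. Of 6 fibroblast markers, 2 to 4 were above 3 counts, with sums of 3.02 to 11.5 CPM against 22800 to 24200 in Fib. Of 5 endothelial markers, 4 or 5 were above 3 counts in each culture condition, including the cultures without iECs, where the sums were 461 to 468 CPM in 2D-iHepSC and 1070 to 1210 in 3D-iHA. In Fetal-Liver, 5 of 5 erythroid markers were above 3 counts and summed to 19000 to 19600 CPM. The 2 libraries of 3D-iHEA and of Fetal-Liver differed more than those of the other conditions, with a chi-square per gene of 10.9 and 12.7 against 2.93 to 3.49. The part of other cell types in the levels below was not tested.

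Sequences help to read these counts, because family members resemble each other. Coding stretches of *Cebpa* and *Cebpb* are shown because the pair splits between a member that is high and one that is low in the converted cells. *Cebpa* and *Cebpb* share 29 coding bases (in capitals) in the basic DNA-binding region and are 63.8% identical over 329 bases.
Cebpa: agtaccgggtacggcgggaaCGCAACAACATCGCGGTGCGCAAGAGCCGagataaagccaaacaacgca
Cebpb: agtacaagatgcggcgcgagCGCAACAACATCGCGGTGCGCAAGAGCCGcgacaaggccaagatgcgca
No stretch of 50 bases of the *Hnf4a*, *Hnf4g*, *Foxa1*, *Foxa2* or *Foxa3* exons occurred in another annotated transcript, so runs this long are unique to each. By contrast, 18.1% of such stretches of *Cebpb* are also in *Tmem189*, a gene on the opposite strand whose exons overlap it and which had 237 to 1182 counts. For *Onecut1* the share was 52.3%, with *Gm20649* and *Onecut3*, for *Prox1* 1% with the antisense *Prox1os*, and for *Cebpa* 0.114%. Whether the counting used strand is not stated, and values of *Cebpb* carry that uncertainty. *Gm20649* lies on the same strand as *Onecut1*, so strand could not separate their shared stretches. How the counting treated reads from such stretches is not stated, and values of *Onecut1* carry that uncertainty.

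Promoter windows of 300 bases (RefSeq, GRCm38.p6) were at hand for 8 of the 9 factors, 12 windows in all, and *Hnf4g* had none. The window shown is 1 of 2 among the 12 that hold the GATA letters AGATAA on either strand, and it belongs to *Foxa2*, the FOXA gene that was high in the cultures. It lies at chr2:148045465-148045714 on the minus strand, upstream of an internal start of *Foxa2*. Capitals mark the GATA letters, held by 11.2% of all 32851 windows, and the TATA letters TATAAA (13.6%), each on either strand.
Foxa2: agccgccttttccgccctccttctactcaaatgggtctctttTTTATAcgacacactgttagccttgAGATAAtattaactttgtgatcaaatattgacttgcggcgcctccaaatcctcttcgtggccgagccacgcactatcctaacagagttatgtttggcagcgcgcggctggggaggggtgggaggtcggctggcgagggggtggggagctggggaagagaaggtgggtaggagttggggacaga
A match describes the letters and is no evidence of binding. *Gata4*, which encodes a factor that binds GATA letters, is counted with the other liver factors below.

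**Figure D1:**
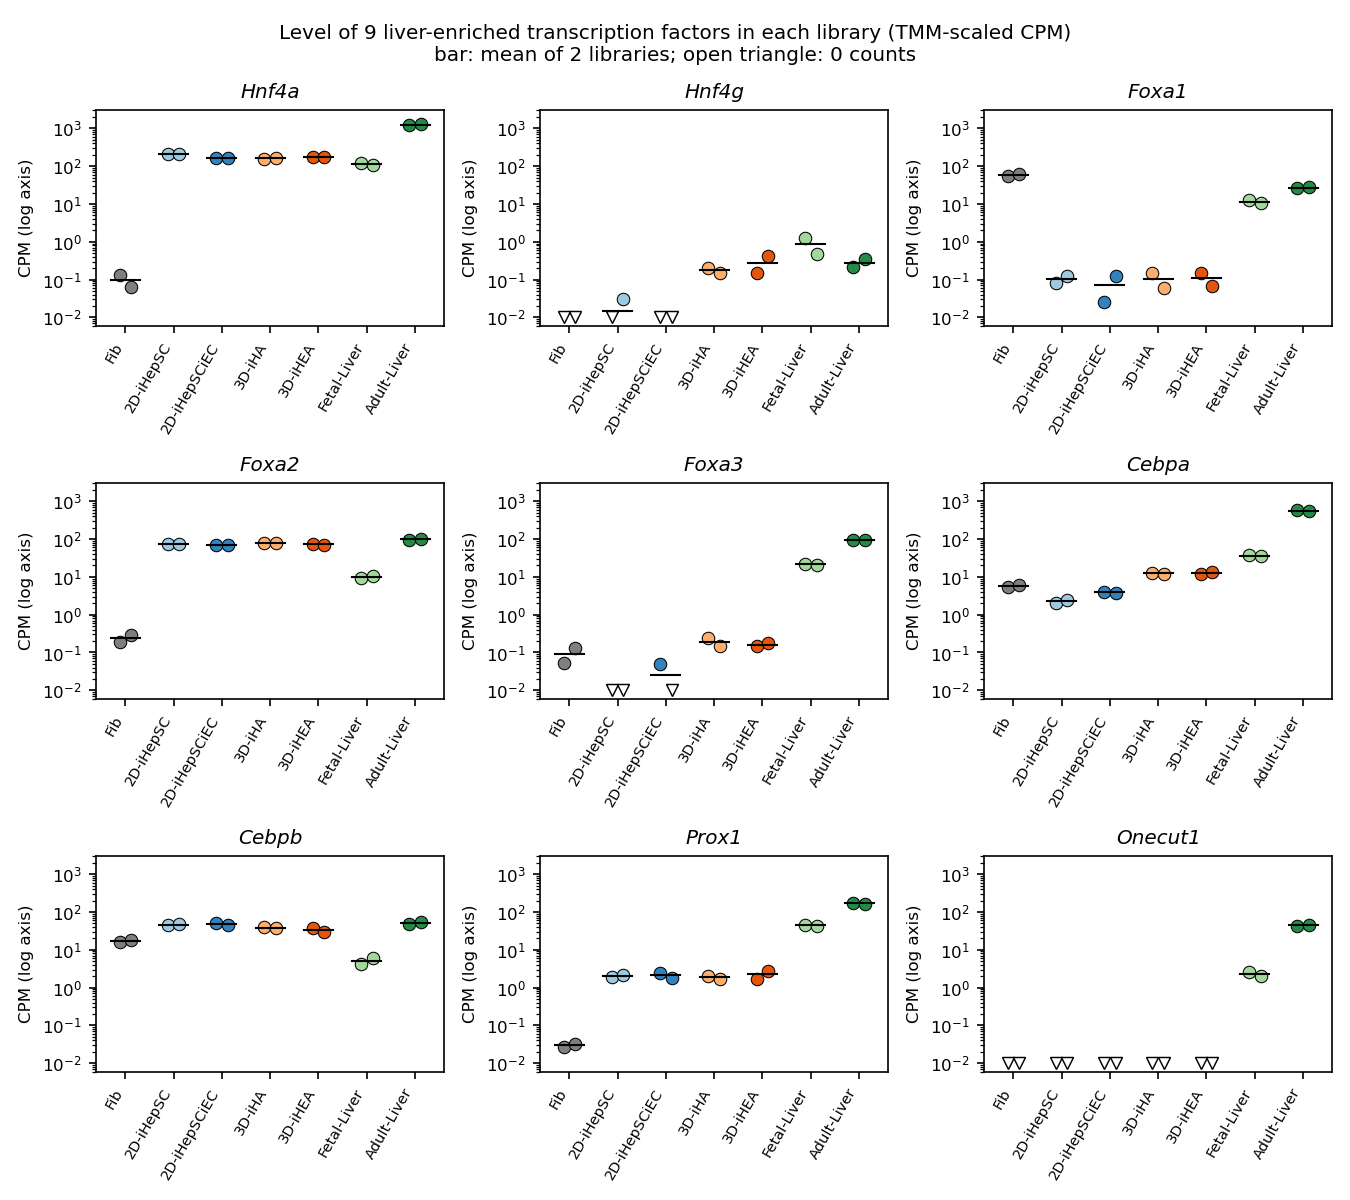
Level of each of the 9 factors in every library, in TMM-normalized CPM on a log axis, by condition. Each point is 1 library, the bar is the mean of 2, and an open triangle stands for 0 counts. *Hnf4a* and *Foxa2* are high in the 4 culture conditions, and the points of *Onecut1* above 0 are those of the 4 liver libraries.

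*Hnf4a* (chr2:163506808-163572910, plus strand) had 7670 and 6875 counts in 2D-iHepSC, 6731 and 4117 in 2D-iHepSCiEC, 5382 and 5591 in 3D-iHA, and 5886 and 5137 in 3D-iHEA. It had 4032 and 3179 counts in Fetal-Liver, 17574 and 18806 in Adult-Liver, and 5 and 2 in Fib. All 8 culture libraries and 4 liver libraries were thus far above both fibroblast libraries. Scaled by the TMM method, which adjusts for a few genes that take up much of a library, the means were 1260 ± 24.1 CPM (SD, n = 2) in Adult-Liver, 208 ± 1.07 in 2D-iHepSC, 176 ± 4.09 in 3D-iHEA, 168 ± 0.934 in 2D-iHepSCiEC, 164 ± 7.43 in 3D-iHA, 114 ± 11.1 in Fetal-Liver and 0.1 ± 0.0501 in Fib. In this order 2D-iHepSCiEC and 3D-iHA overlapped, and the other neighbours did not. Per kilobase of exon, *Hnf4a* had the highest level of the 9 factors in each condition except Fib, from 23.6 CPM per kb in Fetal-Liver to 261 in Adult-Liver. The antisense gene *Hnf4aos*, which lies in the same region with no shared exon, had 140 and 156 counts in Adult-Liver and 0 to 5 in the other 12 libraries.

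*Hnf4g* (chr3:3508030-3658052, plus strand), a nuclear receptor of the gut close to HNF4A, was low throughout. It had 42 and 14 counts in Fetal-Liver, 3 and 5 in Adult-Liver, 7 and 5 in 3D-iHA and 5 and 12 in 3D-iHEA. In 2D-iHepSC it had 0 and 1 counts and in Fib and 2D-iHepSCiEC none. Every 3D library was therefore above every 2D library, at 5 to 12 counts, and the levels of 3D-iHEA and Adult-Liver overlapped below Fetal-Liver. *Hnf4a* held at least 98.7% of the per-length counts of the pair in each condition.

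The FOXA genes were used in different proportions in fibroblasts, converted cells and liver. *Foxa1* (chr12:57540628-57546916, minus strand) had 2075 and 1858 counts in Fib, 413 and 307 in Fetal-Liver and 367 and 404 in Adult-Liver, but 1 to 5 in the 8 culture libraries. *Foxa2* (chr2:148042877-148046969, minus strand) showed the opposite, with 7 and 9 counts in Fib and 1667 to 2800 in the cultures. It had 2738 and 2481 in 2D-iHepSC, 2800 and 1667 in 2D-iHepSCiEC, 2694 and 2626 in 3D-iHA, 2552 and 2061 in 3D-iHEA, 311 and 312 in Fetal-Liver, and 1337 and 1508 in Adult-Liver. Fibroblasts and cultures did not overlap in either gene. Means of *Foxa1* were 58.2 ± 2.76 CPM (SD, n = 2) in Fib, 26.7 ± 1.04 in Adult-Liver and 11.4 ± 1.58 in Fetal-Liver, in this order without overlap (with library totals in place of TMM the livers stood at 11.1 and 13.3), and 0.0739 to 0.108 in the cultures, which overlapped with each other. *Foxa3* (chr7:19013284-19023538, minus strand), which is active in mature liver glucose metabolism, had 724 and 631 counts in Fetal-Liver, 1365 and 1361 in Adult-Liver, and 0 to 8 elsewhere. Both livers lay far above all other libraries in this gene, at 94.5 ± 2.92 CPM in Adult-Liver and 21.5 ± 0.577 in Fetal-Liver against 0 to 0.193 elsewhere.

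Expressed as shares of the family's counts per length, *Foxa1* made up 99.2 ± 0.283% (SD, n = 2) in Fib, and *Foxa2* 99.9% in both 2D conditions and 99.6% in both 3D conditions. Fetal-Liver held 18.9 ± 2.05% *Foxa1*, 23.1 ± 2.19% *Foxa2* and 58.2 ± 0.0707% *Foxa3*. In Adult-Liver the shares were 8.37 ± 0.219%, 43.2 ± 1.84% and 48.4 ± 1.98%. Which of *Foxa2* and *Foxa3* led in Adult-Liver was close, at 45.7% and 46% when the longest transcript gave the length. All 3 members thus had a sizeable share in liver, and a single member nearly the whole in fibroblasts and in converted cells. In CPM, the mean of *Foxa2* was 98.5 ± 5.54 in Adult-Liver, 79.3 ± 0.0311 in 3D-iHA, 74.5 ± 0.957 in 2D-iHepSC, 73.3 ± 2.31 in 3D-iHEA, 68.9 ± 0.932 in 2D-iHepSCiEC, 9.93 ± 0.722 in Fetal-Liver and 0.241 ± 0.0719 in Fib. 2D-iHepSC and 3D-iHEA were the neighbours that overlapped. With library totals in place of TMM, Adult-Liver was at 41.0 CPM, under the cultures at 79.8 to 93.6.

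**Figure D2:**
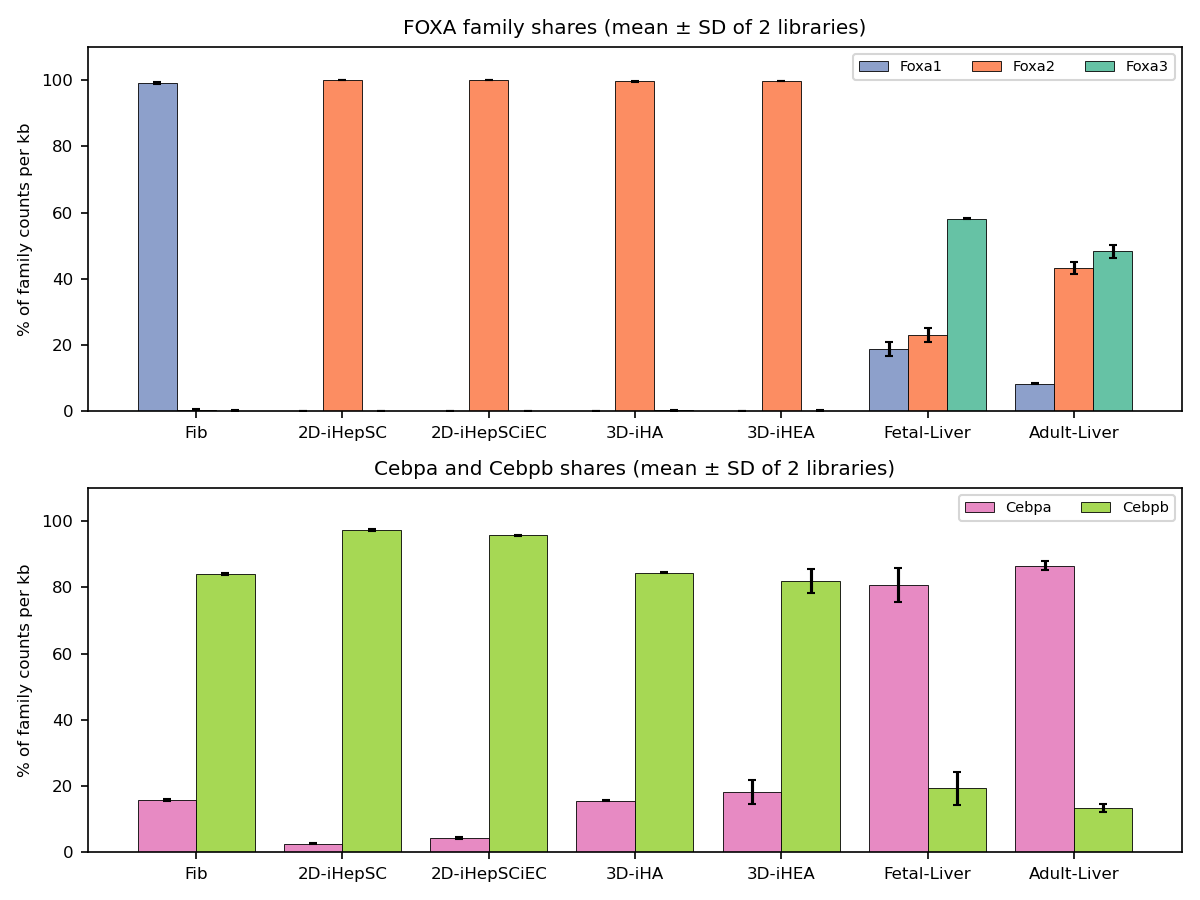
Share of each member in the counts per kilobase of its family, in percent, for the FOXA family and for *Cebpa* with *Cebpb* in 7 conditions, as bars with the mean and SD of 2 libraries. *Foxa1* makes up 99.2% of the FOXA counts in Fib, *Foxa2* 99.6 to 99.9% in the cultures, and *Cebpa* makes up 80.7% of its pair in Fetal-Liver and 86.5% in Adult-Liver.

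*Cebpa* (chr7:35119293-35121928, plus strand), a factor of hepatocyte metabolism that also restrains proliferation, differed most between 2D and 3D culture among the 5 factors tested there. It had 75 and 81 counts in 2D-iHepSC, 159 and 93 in 2D-iHepSCiEC, 437 and 394 in 3D-iHA, and 411 and 382 in 3D-iHEA. Counts were 195 and 188 in Fib, 1260 and 1042 in Fetal-Liver, and 8174 and 8100 in Adult-Liver. The 3D libraries did not overlap with the 2D libraries or with either liver. Means were 564 ± 19.9 CPM in Adult-Liver, 36.5 ± 2.33 in Fetal-Liver, 12.7 ± 0.858 in 3D-iHEA, 12.4 ± 0.678 in 3D-iHA, 5.69 ± 0.566 in Fib, 3.88 ± 0.101 in 2D-iHepSCiEC and 2.24 ± 0.306 in 2D-iHepSC (SD, n = 2). Neighbours in this order were apart except the 2 kinds of 3D culture, which overlapped, and the 2D cells lay under the fibroblasts they came from.

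*Cebpb* (chr2:167688915-167690418, plus strand), an inflammation-responsive factor that is less specific to liver, was the leading C/EBP member of the pair outside the livers. It had 1665 and 1580 counts in 2D-iHepSC, 2087 and 1129 in 2D-iHepSCiEC, 1345 and 1224 in 3D-iHA, and 1273 and 836 in 3D-iHEA. Counts were 599 and 558 in Fib, 135 and 177 in Fetal-Liver and 664 and 779 in Adult-Liver. Per length, *Cebpa* made up 2.67 ± 0.247% of the pair in 2D-iHepSC, 4.33 ± 0.233% in 2D-iHepSCiEC, 15.6 ± 0.141% in 3D-iHA and 18.1 ± 3.61% in 3D-iHEA. It made up 15.9 ± 0.283% in Fib, 80.7 ± 5.02% in Fetal-Liver and 86.5 ± 1.34% in Adult-Liver. The share in the 3D libraries, 15.5 to 20.7%, thus spanned that of fibroblasts and lay above 2D culture and below both livers. In level, *Cebpb* ran from 49.9 ± 4.2 CPM in Adult-Liver over 49.1 ± 3.98 in 2D-iHepSCiEC, 46.4 ± 2.11 in 2D-iHepSC, 38.3 ± 1.84 in 3D-iHA, 33.2 ± 5.87 in 3D-iHEA and 17.2 ± 1.29 in Fib to 5.01 ± 1.3 in Fetal-Liver. The first 3 overlapped in a chain, as did both 3D conditions. With library totals Adult-Liver was at 20.8 CPM, under the cultures at 39.8 to 56.8.

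*Prox1* (chr1:190118035-190170714, minus strand), a factor that hepatoblasts need to migrate and grow, had 1 count in each Fib library and 43 to 98 in the cultures. Counts were 72 and 73 in 2D-iHepSC, 98 and 43 in 2D-iHepSCiEC, 69 and 56 in 3D-iHA, and 59 and 79 in 3D-iHEA, with means of 1.86 to 2.24 CPM. In Fetal-Liver it had 1525 and 1284 counts and in Adult-Liver 2444 and 2429. The 4 culture conditions overlapped in level, above Fib and below Fetal-Liver at 44.6 ± 2.28 CPM and Adult-Liver at 169 ± 5.6. *Onecut1* (chr9:74861921-74891781, plus strand), which guides bile duct and hepatocyte genes, had 87 and 61 counts in Fetal-Liver, 605 and 678 in Adult-Liver, and 0 in the other 10 libraries, where 0 allows up to 3 counts in each. Its means were 44.4 ± 2.3 CPM in Adult-Liver and 2.34 ± 0.42 in Fetal-Liver.

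The comparison of 3D-iHA with 2D-iHepSC asks how the factors of the hepatic cells differ between the organoid and the dish. Of the 9 factors, 5 passed the filter on low counts in the 8 culture libraries (3 or more as the mean of log2(count + 1)), and 4 of these were called at an adjusted p under 0.05, 2 higher and 2 lower. Of all 13409 genes tested, 72.3% were called, 36.9% higher and 35.3% lower, so 4 of 5 is near the background. *Cebpa* rose 5.56-fold (counting interval 4.68 to 6.64), a log2 fold change of 2.51 ± 0.13 (SE) (edgeR, adjusted p = 1.67e-09), and kept its call in each of the 19 alternatives, at 2.36 to 2.65. *Hnf4a* fell by 0.30 ± 0.05 on the log2 scale (edgeR, adjusted p = 0.000119), also in all 19 alternatives. *Foxa2* was higher by a log2 of 0.13 ± 0.05 (edgeR, adjusted p = 0.0235), and this call was lost in 9 of 19 alternatives, among them DESeq2 (adjusted p = 0.0826) and the fit of all 14 libraries (edgeR, adjusted p = 0.182). *Cebpb* fell by 0.23 ± 0.09 on the log2 scale (edgeR, adjusted p = 0.0383), a call lost with library totals (adjusted p = 0.0534) and without the second 2D-iHepSC library (adjusted p = 0.166), the first 3D-iHA library (adjusted p = 0.0636) or the second (adjusted p = 0.215). *Prox1* had a log2 fold change of -0.11 ± 0.26 (edgeR, adjusted p = 0.718). Counting intervals here and below are at 95% and cover counting error alone.

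Factors under the filter were added to the same fit to see the low values. *Foxa3* had 8 and 5 counts in 3D-iHA against 0 and 0 in 2D-iHepSC, at least 2.25-fold higher against the floor of 3 counts per library (edgeR, adjusted p = 0.00174). *Hnf4g* had 12 counts in all against 1, a ratio of 12.5 with a counting interval of 1.85 to 536 (edgeR, adjusted p = 0.0155), a call lost without the first 2D-iHepSC library (edgeR, adjusted p = 0.109) or the first 3D-iHA library (edgeR, adjusted p = 0.0697). Both remained at the level of single reads. *Foxa1* had 7 counts in all in each condition (edgeR, adjusted p = 0.917), and *Onecut1* had none.

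The same step in the cultures with iECs, 3D-iHEA against 2D-iHepSCiEC, gave 3 called factors of 5, 2 higher and 1 lower, with 70.9% of all genes called, 36.0% higher and 34.9% lower. *Cebpa* rose 3.24-fold (counting interval 2.81 to 3.75), a log2 fold change of 1.74 ± 0.12 (edgeR, adjusted p = 3.62e-08), and *Cebpb* fell by 0.53 ± 0.10 on the log2 scale (edgeR, adjusted p = 0.000256). Both calls held in all 17 alternatives. *Foxa2* was higher by 0.12 ± 0.05 (edgeR, adjusted p = 0.0371), and the call was lost in 10 of 17 alternatives, with an adjusted p of up to 0.196 in edgeR. *Hnf4a* had a log2 fold change of 0.10 ± 0.05 (edgeR, adjusted p = 0.0922), called without the numbered 3D-iHEA library at 0.14 (edgeR, adjusted p = 0.034). *Prox1* had 0.09 (edgeR, adjusted p = 0.763). With the low factors added, *Hnf4g* was at least 2.86-fold higher against the floor, with 17 counts against 0 (edgeR, adjusted p = 0.00177), and *Foxa3* had 10 counts against 2, a ratio of 5.14 with a counting interval of 1.1 to 48.3 (edgeR, adjusted p = 0.0393), a call lost without a filter (edgeR, adjusted p = 0.118), without the second 2D-iHepSCiEC library (edgeR, adjusted p = 0.132) and without either 3D-iHEA library (edgeR, adjusted p = 0.0547 and 0.0823).

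**Figure D3:**
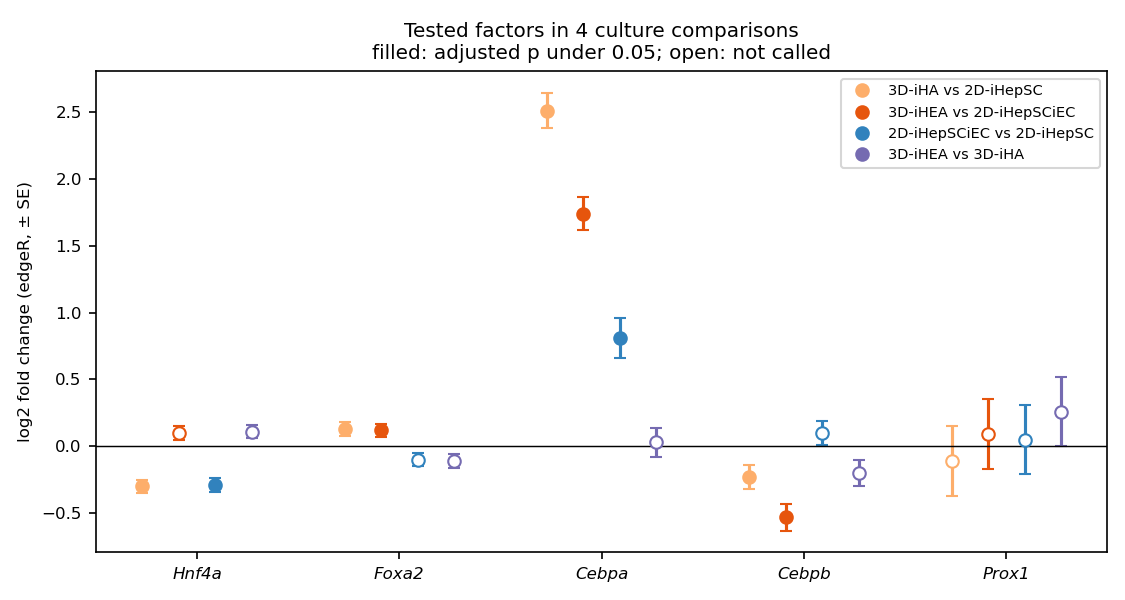
Log2 fold change (points) with its SE (bars) of the 5 factors tested in 4 comparisons between culture conditions, from edgeR. Filled points are called at an adjusted p under 0.05. *Cebpa* stands at 2.51 and 1.74 in the comparisons of 3D with 2D culture, and in 3D-iHEA against 3D-iHA no point is filled.

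Addition of iECs in 2D was read from 2D-iHepSCiEC against 2D-iHepSC, where 2 of the 5 factors were called, 1 in each direction, against 8.17% of all genes, 4.26% higher and 3.92% lower. *Cebpa* rose 1.75-fold (counting interval 1.43 to 2.15), a log2 fold change of 0.81 ± 0.15 (edgeR, adjusted p = 0.00599). The call was lost without the first 2D-iHepSC library (0.67, adjusted p = 0.0923) or the first 2D-iHepSCiEC library (0.79, adjusted p = 0.0768). *Hnf4a* fell by 0.29 ± 0.05 on the log2 scale (edgeR, adjusted p = 0.00337), lost without the first 2D-iHepSCiEC library (edgeR, adjusted p = 0.0676). *Foxa2* had a log2 fold change of -0.10 (edgeR, adjusted p = 0.248), *Cebpb* 0.10 (edgeR, adjusted p = 0.6) and *Prox1* 0.05 (edgeR, adjusted p = 0.939).

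Addition of iECs in 3D, 3D-iHEA against 3D-iHA, gave 0 of 5 called factors in edgeR, with 2.26% of all genes called, 1.19% higher and 1.07% lower. *Foxa2*, at a log2 fold change of -0.11 ± 0.05, was the 1 factor under the threshold before adjustment, and DESeq2 called 0. *Hnf4a* had a log2 fold change of 0.11 ± 0.05 (edgeR, adjusted p = 0.412), *Cebpa* 0.03 ± 0.11 (edgeR, adjusted p = 0.947), *Cebpb* -0.20 ± 0.10 (edgeR, adjusted p = 0.44) and *Prox1* 0.26 ± 0.26 (edgeR, adjusted p = 0.788). The 2 libraries of 3D-iHEA differed here. Without the numbered 1, *Cebpb* was called at -0.38 (edgeR, adjusted p = 0.00649), and without the unnumbered 1 it stood at -0.04 (edgeR, adjusted p = 0.884).

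Whether iECs had a different effect in 3D than in 2D was tested as the difference of both effects, in which 2 of 5 factors were called, 1 higher and 1 lower, against 3.14% of all genes, 1.52% higher and 1.62% lower. *Hnf4a* had a higher effect in 3D, by a log2 of 0.40 ± 0.07 (edgeR, adjusted p = 0.00893). Its call was lost without the first 2D-iHepSCiEC library (0.39, adjusted p = 0.0678) or the first 3D-iHA library (0.36, adjusted p = 0.067). *Cebpa* had a lower effect in 3D, by -0.78 ± 0.18 (edgeR, adjusted p = 0.0419). This call was lost in 7 of 16 alternatives, with DESeq2 at -0.77 (adjusted p = 0.0737) and with 6 of the libraries left out in turn, at -0.63 to -0.91. *Cebpb* at -0.29 (edgeR, adjusted p = 0.319), *Prox1* at 0.20 (edgeR, adjusted p = 0.857) and *Foxa2* at -0.01 (edgeR, adjusted p = 0.969) were not called, although *Cebpb* was at -0.48 (edgeR, adjusted p = 0.00464) without the numbered 3D-iHEA library.

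Conversion of fibroblasts was read from 2D-iHepSC against Fib in a fit of all 14 libraries, in which 7 of the 9 factors passed the filter. Of these, 3 reached the filter in both conditions and were called, 2 higher and 1 lower, where 83.9% of 14121 genes were called, 45.8% higher and 38.1% lower. *Foxa2* was 315-fold higher (counting interval 194 to 552; edgeR, adjusted p = 2.89e-17), *Cebpb* 2.71-fold higher (edgeR, adjusted p = 2.07e-08) and *Cebpa* 2.54-fold lower (edgeR, adjusted p = 1.24e-07). A gene that passes the filter only through the condition where it is high has to differ, so here and below such genes are left out of the counts and given as a description. Among them, *Hnf4a*, delivered by the lentivirus, was 2010-fold higher (counting interval 975 to 5000) and *Prox1*, with 145 counts against 2, had a ratio of 70.1 (19.1 to 584). *Foxa1* was 581-fold lower (282 to 1450), and *Foxa3* had 0 counts against 2 and 4, the level of single reads. *Pou5f1*, the other lentiviral gene, had 11 to 27 counts in the culture libraries and 0 in Fib and both livers.

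Comparisons with the livers set the cultures beside the tissue. They share libraries, so their values are given side by side. Against Fetal-Liver, 5 factors reached the filter in both conditions and were called in 2D-iHepSC and in 3D-iHA, 3 higher and 2 lower in each, with 85.5% and 85.7% of all genes called, 42.3% and 42.7% higher and 43.2% and 43.0% lower. The largest adjusted p in edgeR was 5.34e-09 and 2.41e-06, both that of *Hnf4a*. *Foxa2* was 7.52-fold higher in 2D-iHepSC and 8-fold higher in 3D-iHA, *Cebpb* 9.33-fold and 7.72-fold, and *Hnf4a* 1.81-fold and 1.43-fold. *Cebpa* was 16.4-fold lower in 2D-iHepSC and 2.96-fold lower in 3D-iHA. *Prox1* was 21.6-fold and 24-fold lower. As a description, *Foxa1* was 115-fold and 110-fold lower, *Foxa3* was at least 251-fold lower in 2D-iHepSC and 111-fold lower in 3D-iHA, and *Onecut1* at least 27.2-fold and 26.2-fold lower. *Hnf4g*, added to the fit, was 4.98-fold lower in 3D-iHA (log2 -2.28; edgeR, adjusted p = 0.00226), at -1.39 without the first Fetal-Liver library (edgeR, adjusted p = 0.0519), and in 2D-iHepSC it had 1 count against 56.

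Against Adult-Liver, all 5 factors that reached the filter in both conditions were lower in 3D-iHA, with 84.9% of all genes called, 45.1% higher and 39.8% lower. *Cebpa* was 45.5-fold lower (edgeR, adjusted p = 5.96e-18), *Prox1* 90.7-fold (edgeR, adjusted p = 2.82e-16) and *Hnf4a* 7.71-fold (edgeR, adjusted p = 1.63e-15). These 3 calls held in every alternative run, at smaller differences with library totals, where *Hnf4a* went from a log2 of -2.95 to -1.44, *Cebpa* from -5.51 to -4.00 and *Prox1* from -6.50 to -5.00. As a description, *Foxa1* was 256-fold lower, *Foxa3* 488-fold lower and *Onecut1* at least 497-fold lower against the floor. *Foxa2*, 1.24-fold lower (log2 -0.31 ± 0.06; edgeR, adjusted p = 0.00014), and *Cebpb*, 1.31-fold lower (log2 -0.38 ± 0.12; edgeR, adjusted p = 0.00823), turned to higher, at log2 1.19 and 1.12, when library totals without scaling factors were used. The TMM factors of the adult libraries were 0.412 and 0.42, against 1.116 to 1.211 elsewhere, and library totals moved the median log2 fold change of all genes in this comparison from 0.105 to 1.609 and the calls from 6366 higher and 5624 lower to 10551 and 2537. *Hnf4g* had a log2 fold change of -0.62 (edgeR, adjusted p = 0.524).

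Adult-Liver against Fetal-Liver set the stages of the tissue side by side, with 7 of 7 factors, each of which reached the filter in both livers, higher in the adult (edgeR, adjusted p of 8.51e-08 or less), 83.7% of all genes called, 40.8% higher and 42.9% lower. *Cebpa* was 15.4-fold higher, *Hnf4a* 11-fold, *Cebpb* 10.1-fold, *Foxa2* 9.95-fold, *Foxa3* 4.38-fold and *Prox1* 3.78-fold, and *Onecut1*, added to the fit, 18.9-fold. *Hnf4g*, also added, was 3.21-fold lower (log2 -1.66; edgeR, adjusted p = 0.0341), with 42 and 14 counts in Fetal-Liver. Without the first fetal library it stood at -0.76 (edgeR, adjusted p = 0.32), and the call was also lost without either adult library (edgeR, adjusted p = 0.187 and 0.091). *Foxa1* was 2.33-fold higher (log2 1.23), and with library totals, which moved the median of all genes from -0.063 to -1.543 and the calls from 5763 higher and 6056 lower to 2241 and 10685, it stood at -0.26 (edgeR, adjusted p = 0.0501). The other 6 kept direction and call with library totals, at lower values, from a log2 of 0.44 for *Prox1* (1.92 with TMM) to 2.46 for *Cebpa* (3.95 with TMM). Erythroid markers summed to 19000 to 19600 CPM in the fetal and 273 to 300 in the adult libraries, and their part in these differences was not tested.

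Other liver transcription factors were read from a list of 29 genes, of which 24 passed the filter in the cultures. In 3D-iHA against 2D-iHepSC, 22 of them reached it in both conditions, of which 11 rose, 4 fell and 7 were not called, with a median log2 fold change of 0.42 against 0.01 for all genes that did so. With 15 of 22 called beside 72% of all such genes, the number of calls was near the background, and 36.4% of these genes were higher and 35.6% lower. Markers of other cell types moved with this step, and their part in the changes of this list and of the target genes below was not tested. Of the intestinal epithelium markers that reached the filter in both conditions, 4 of 5 were called higher here and 5 of 5 with iECs. For endothelial markers it was 2 of 3 in each, and for fibroblast markers 1 of 2 in each, with 1 lower. Beside these, 36.4% of all such genes were higher here and 35.3% with iECs. *Nr1i2*, the drug-sensing receptor PXR, had 4 and 6 counts in 2D-iHepSC and 133 and 115 in 3D-iHA, and as it passed the filter through the 3D libraries it is given as a description (log2 4.70). *Klf15*, a factor of gluconeogenesis and amino acid breakdown, and *Creb3l3*, a membrane-bound factor of fasting and the acute phase, rose by 3.07 and 2.84. *Sox9*, a bile duct and progenitor factor, fell by 2.80, *Zbtb20*, a repressor of *Afp*, by 0.96 and *Nr1h4*, the bile acid receptor FXR, by 0.52. The call of *Nr1h4* was lost with DESeq2 (adjusted p = 0.0908), without either 2D-iHepSC library, and without the first 3D-iHA library, at -0.32 (edgeR, adjusted p = 0.261).

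With iECs, in 3D-iHEA against 2D-iHepSCiEC, 22 genes reached the filter in both conditions, of which 11 rose, 3 fell and 8 were not called, with a median of 0.44 against 0 for all such genes, beside 70.4% of these called, 35.3% higher and 35.2% lower. *Klf15* rose by 2.48, *Nr1i2* and *Creb3l3*, which passed through the 3D libraries, had log2 fold changes of 4.52 and 3.73, and *Zbtb20*, *Sox9* and *Tef* fell by 0.99, 0.82 and 0.31. *Sox9* rested on single libraries there, at -1.55 without the numbered 3D-iHEA library, -0.38 without the unnumbered 1 and -0.66 without the first 2D-iHepSCiEC library, where the call was lost (edgeR, adjusted p = 0.122). In 2D-iHepSCiEC against 2D-iHepSC, 21 genes reached the filter in both conditions, where 8.45% of all such genes were called. Of the 21, 1 rose (*Rxra*, by 0.24) and 3 fell (*Tbx3*, *Sox17* and *Cebpd*, by 0.67, 0.45 and 0.32), and these 4 are named after their values were seen. In 3D-iHEA against 3D-iHA, 24 genes reached the filter in both conditions, where 2.27% of all such genes were called. Of the 24, 2 rose, *Sox9* by 1.85 (edgeR, adjusted p = 0.013) and *Onecut2* by 0.66 (edgeR, adjusted p = 0.00268). *Klf15* fell by 0.39 (edgeR, adjusted p = 0.0476). The call of *Klf15* was lost in 11 of 17 alternatives, and its change was -0.26 without the unnumbered 3D-iHEA library (edgeR, adjusted p = 0.0813) and -0.53 without the numbered 1. *Sox9* had 163 and 60 counts in 3D-iHEA, far apart, against 31 and 34 in 3D-iHA, and its change was 1.12 without the numbered 3D-iHEA library and 2.29 without the unnumbered 1. This call was lost without either 3D-iHA library (edgeR, adjusted p of 0.107 and 0.15) and with the compared libraries alone (edgeR, adjusted p = 0.0932). *Onecut2* and *Onecut3*, relatives of *Onecut1*, were present where *Onecut1* was at 0, with 356 to 1733 and 25 to 43 counts in the cultures.

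**Figure D4:**
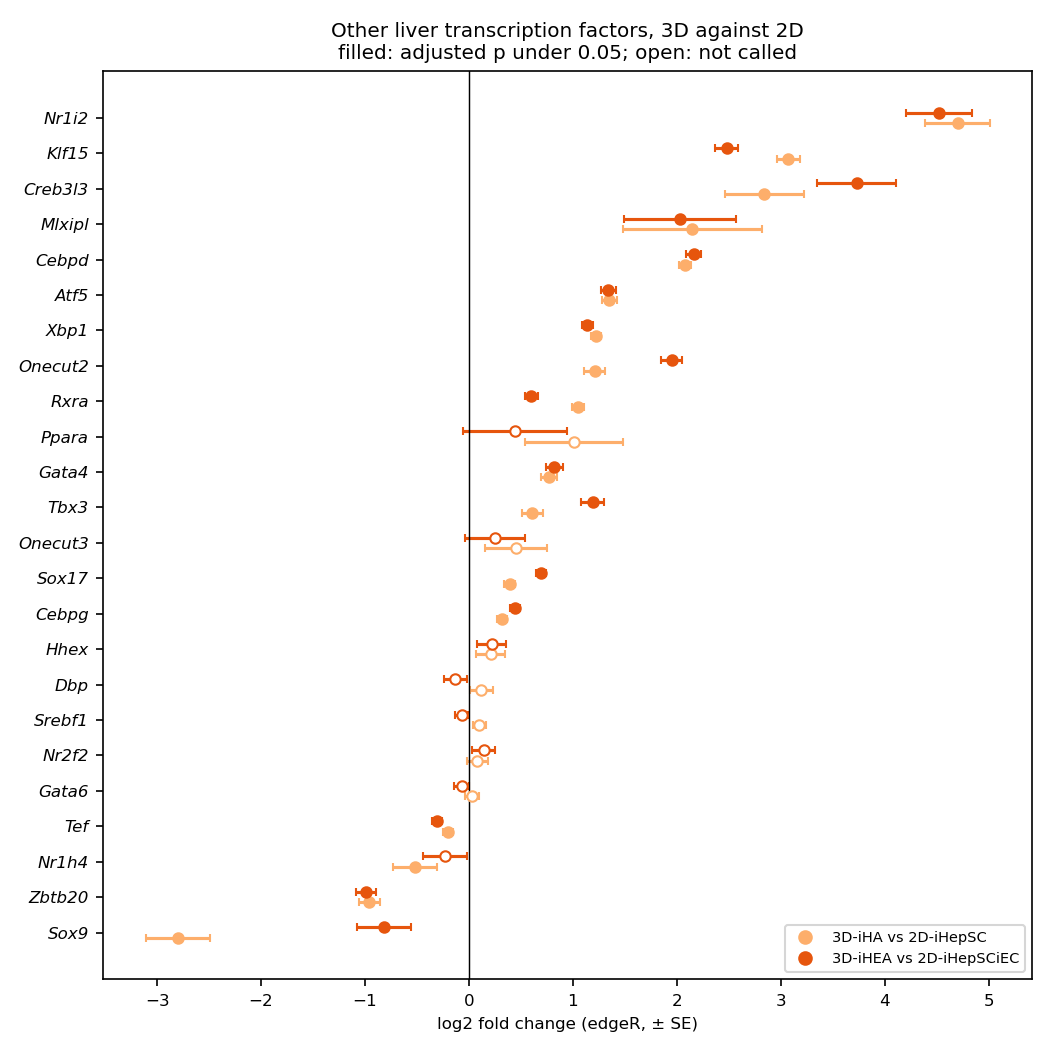
Log2 fold change of 24 other liver transcription factors in 3D-iHA against 2D-iHepSC and in 3D-iHEA against 2D-iHepSCiEC, 1 point per gene and comparison. In each comparison 22 of the 24 reached the filter in both conditions and 11 of these were called higher, and *Nr1i2*, at 4.70 and 4.52, passed it through the 3D libraries.

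Across the wider comparisons, the genes of this list that reached the filter in both conditions are counted, beside all genes that did so. Against Fib there were 16, of which 5 were higher and 9 lower in 2D-iHepSC (median -0.58 against 0.12), where 46.6% of such genes were higher and 37.6% lower. The other 12 genes tested reached it on 1 side, and among these, as a description, *Sox17*, an endoderm factor, had 4308 and 4004 counts against 0 and 0, at least 1330-fold, *Gata4* was 402-fold higher, and *Zhx2*, which had 7 counts in all, was 159-fold lower than in Fib. Against Fetal-Liver, 10 of 22 were higher and 10 lower in 2D-iHepSC (median 0.33 against 0.07, with 44.5% of such genes higher and 40.0% lower), and 15 of 25 were higher and 10 lower in 3D-iHA (0.72 against 0.05, with 44.4% and 40.2%). Against Adult-Liver, 5 of 24 were higher and 19 lower in 3D-iHA (median -2.64 against 0.11), where 46.4% of such genes were higher and 39.5% lower. *Sox17* was 29.4-fold higher and *Cebpd* 10.5-fold, and as a description *Onecut3* was at least 5.01-fold higher and *Zhx2* at least 317-fold lower. In Adult-Liver against Fetal-Liver 23 of 27 were higher and 1 lower (median 2.72 against 0.03, with 44.0% of such genes higher and 41.8% lower). Counts and folds with Adult-Liver here used TMM, and the counts were not repeated with library totals. That setting moved the median of all genes from 0.105 to 1.609 in 3D-iHA against Adult-Liver. In Adult-Liver against Fetal-Liver the median went from -0.063 to -1.543.

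Known target genes of the factors were counted from short lists. Of 17 HNF4A targets, 5 passed the filter in the cultures. In 3D-iHA against 2D-iHepSC 4 reached it in both conditions, of which 2 rose, *Ttr* by 5.06 and *Apob* by 0.88 on the log2 scale, and *Mttp* fell by 0.37 (median 0.45 against 0.01), where 36.4% of all such genes were higher and 35.6% lower. *Apoa4*, with 2 and 1 counts in 2D-iHepSC and 68 and 63 in 3D-iHA, passed through the 3D libraries. The call of *Mttp* was lost with DESeq2 (adjusted p = 0.0791) and without each of the 4 compared libraries in turn. *Ttr*, which encodes the thyroxine carrier transthyretin, had 85 and 89 counts in 2D-iHepSC, 2924 and 2477 in 3D-iHA and 68397 and 66148 in Adult-Liver. In 3D-iHEA against 2D-iHepSCiEC, 2 of 4 rose (*Ttr* and *Apob*, by 5.78 and 1.09) and 2 fell (*Mttp* and *Apoa1*, by 1.09 and 0.38, the latter at -0.25 without the unnumbered 3D-iHEA library), where 35.3% of all such genes were higher and 35.2% lower. Against Adult-Liver, all 7 targets that reached the filter in both conditions were lower in 3D-iHA, with a median of -6.11 against 0.11 for all such genes, of which 39.5% were lower.

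Of 8 C/EBP targets, 3 were tested in the cultures, and in 3D-iHA against 2D-iHepSC 1 rose, *Tat*, the tyrosine aminotransferase of mature hepatocytes, by 2.60, and 1 fell, *Alb*, named after its values were seen, by 3.34, so 2 of 3 were called beside 72% of the genes that, like these, reached the filter in both conditions. The call of *Tat* was lost in the fit of all 14 libraries (edgeR, adjusted p = 0.0817), without either 2D-iHepSC library and without the second 3D-iHA library. *Alb* had 210 and 9 counts in 2D-iHepSC and 3 and 16 in 3D-iHA, which overlap. *Tat* had 538 and 62 counts in 3D-iHEA, and against 2 and 1 in 2D-iHepSCiEC its log2 fold change was 7.53, a description, and 5.48 without the numbered library. Of 6 FOXA targets, 4 were tested, and 2 rose (*Ttr* and *Tat*) and 2 fell (*Alb*, whose libraries overlap, and *Afp* by 1.02), beside 36.4% of all such genes higher and 35.6% lower. Of 9 acute phase genes, whose promoters answer to C/EBP factors, 4 were tested, 3 reached the filter in both conditions and these 3 rose in each 3D comparison, beside 36.4% and 35.3% of all such genes, with a median of 2.77 against 0.01 without iECs and 3.34 against 0 with them. *C3* rose by 3.35 and 3.34 and *Hp* by 2.77 and 4.75. *Saa1*, which passed through the 3D libraries, had 21 and 1 counts in 2D-iHepSC, 383 and 354 in 3D-iHA, 2 and 1 in 2D-iHepSCiEC and 275 and 182 in 3D-iHEA. In 3D-iHEA, *C3* had 7868 and 1393 counts and *Hp* 2063 and 223, and without the numbered library *C3* stood at 1.82 and *Hp* at 2.61. Without iECs, the call of *Hp* was lost without either 2D-iHepSC library or the second 3D-iHA library (edgeR, adjusted p of 0.0571 to 0.0787). Against Adult-Liver, 3 C/EBP targets, 4 FOXA targets and 6 acute phase genes reached the filter in both conditions, and all were lower in 3D-iHA except *Afp*, which was higher, beside 46.4% of all such genes higher and 39.5% lower.

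Over the 14 libraries, which share cell source within conditions, the levels of the factors fell into patterns, given as a description in log2 CPM. *Hnf4a* and *Foxa2* had a Pearson r of 0.94, *Foxa3* and *Cebpa* 0.94, *Foxa3* and *Prox1* 0.86, and *Foxa1* and *Foxa2* -0.67. Of all 14121 genes tested, those closest to *Hnf4a* were *Slc6a9*, *Pcbd1* and *Grtp1* (r of 0.996 to 0.997), and those closest to *Foxa2* were *Rnf128*, *Pkp2* and *Akr1c12* (0.995 to 0.997). Closest to *Foxa1* were *Col14a1*, *Colec12* and *Hspa12a* (0.994 to 0.995), and to *Foxa3* *Nr5a2*, *Nudt19* and *Maob* (0.991 to 0.996). *Cebpa* was closest to *Slc25a23*, *Cipc* and *Pbld1* (0.989 to 0.994), *Cebpb* to *Urgcp*, *Bhlhe40* and *Tap1* (0.988 to 0.989), and *Prox1* to *Timm8a1*, *Hhex* and *Tango2* (0.989 to 0.991). *Nr5a2*, a bile acid and cholesterol regulator, had 501 to 1274 counts in the livers and 0 to 5 elsewhere, and *Hhex* is a homeodomain factor of the liver bud. With 7 conditions of 2 libraries, such values rest on few levels. By rank correlation, 1 of the 3 closest genes was kept for *Foxa1* and for *Cebpa* and 0 for each of the other 5.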

How the data were processed

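RNA-seq counts per gene of 14 libraries (7 conditions, 2 each) were used as deposited. According to the labels and methods, the authors trimmed reads with Trimmomatic 0.36, used HISAT2 for alignment to mm10 (GRCm38) and Cufflinks for annotation, and obtained counts with HTSeq; other versions, the annotation release and the use of strand are not given in the sources used here. The deposited values are whole-number counts that were not normalized. Conditions came from the sample titles, and 1 column of 3D-iHEA without a usable number was used as a library of that condition.

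In R 4.3.3 with edgeR 4.0.16, counts were TMM-normalized, genes were kept whose log2(count + 1) averaged 3 or more, and the quasi-likelihood test was run with Benjamini-Hochberg adjustment (called under 0.05). Culture comparisons came from a fit of 8 libraries and the others from a fit of 14. The SE was taken from the log2 fold change and its F statistic, and fold changes without a log2 are ratios of summed counts over scaled totals, with exact 95% counting intervals. CPM used a prior count of 2 on the log2 scale. Shares per length used the union of exons in GENCODE annotation of GRCm38. Alternatives were DESeq2 1.42.0, its size factors, upper quartile scaling, filters of 5 or none, other sets of libraries, the library number as a block, and each library left out; library totals, the block libraries without the block, counts over genes that reached the filter in each condition compared, and low factors with each library left out were chosen after seeing the data. Tests were checked on simulated counts. Total counts of 20851489 to 35143325 set the precision.

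The factors, the gene lists and the tests were chosen with earlier results of these data known. Named from each list were up to 3 genes per direction with the largest change among called genes whose libraries did not overlap, and for each factor the 3 closest genes. *Alb*, *Pou5f1*, *Rxra*, *Tbx3*, *Onecut2*, *Onecut3* and *Nr5a2* counts, and the overlapping genes, were added after their values were seen. The list of other liver factors was shortened by 2 genes that are not reported here. Marker lists served as checks of the labels.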

Additional observations from a re-analysis of the deposited data

Results flagged for a closer look

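The effect of iECs differed between 3D and 2D culture for 2 of the 5 factors tested, where 3.14% of all genes were called, by a test of the difference itself. For *Hnf4a* the difference was 0.40 on the log2 scale, from an effect of 0.11 in 3D and -0.29 in 2D. For *Cebpa* it was -0.78, from 0.03 in 3D and 0.81 in 2D. Both calls were lost in some of the leave-one-out fits, as described above, and that of *Cebpa* also with DESeq2 (-0.77, adjusted p = 0.0737).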

How the results depend on the processing

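For the factors that passed the filter, 7 in the fit of 14 libraries and 5 in the cultures, 1218 results under the alternatives kept direction and call, 37 lost a call, 3 gained one and 16 changed sign. The 1218 include results of factors that passed the filter through 1 condition and so had to differ. These were *Foxa1* and *Foxa3* in the cultures against Fib or a liver, and *Hnf4a* and *Prox1* against Fib. The sign changes outside the adult liver were of uncalled values near 0. With each library left out, *Prox1* ranged from -0.25 to 0.02 (3D-iHA against 2D-iHepSC), -0.28 to 0.40 (3D-iHEA against 2D-iHepSCiEC), -0.21 to 0.23 (2D-iHepSCiEC against 2D-iHepSC), -0.11 to 0.57 (3D-iHEA against 3D-iHA) and -0.17 to 0.51 (difference of the iEC effects), *Cebpa* from -0.04 to 0.11 in 3D-iHEA against 3D-iHA, and *Foxa2* from -0.03 to 0.02 in the difference, where it was 0.00 with upper quartile scaling. Library totals gave 1.19 for *Foxa2* and 1.12 for *Cebpb* in 3D-iHA against Adult-Liver, and -0.26 for *Foxa1* in Adult-Liver against Fetal-Liver; the adult scaling factors are what this setting removes. In 3D-iHA against Adult-Liver *Foxa2* lost its call without a filter (-0.16, adjusted p = 0.0577) and *Cebpb* without the second 3D-iHA library (-0.30, adjusted p = 0.0806).

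With low factors added, 5 in place of 3 were called in 3D-iHEA against 2D-iHepSCiEC, by construction. DESeq2 called 1 factor in place of 2 in the difference of the iEC effects. All genes called went from 1096 to 2046 in 2D-iHepSCiEC against 2D-iHepSC with the compared libraries alone, from 303 to 90 in 3D-iHEA against 3D-iHA with these and to 881 without a filter, and from 421 to 901 in the difference without a filter. With the library number as a replicate block (3D-iHEA left out) 1952 were called in 2D-iHepSCiEC against 2D-iHepSC, and 2029 in the same libraries without the block. Equal numbers did not mark pairs, since 0 of 15 correlations of deviations were over 0.1 (-0.07 to 0.048).

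With each library left out, the genes called ranged from 250 to 2014 (factors 0 to 2) in 2D-iHepSCiEC against 2D-iHepSC, 8652 to 10109 (2 to 4) in 3D-iHA against 2D-iHepSC, 8491 to 9354 (2 to 3) in 3D-iHEA against 2D-iHepSCiEC, 93 to 723 (0 to 1) in 3D-iHEA against 3D-iHA, and 129 to 959 (0 to 3) in the difference. They ranged from 11042 to 11981 in 2D-iHepSC against Fib, 11586 to 12236 and 11639 to 12265 in 2D-iHepSC and 3D-iHA against Fetal-Liver, and 11156 to 11976 in Adult-Liver against Fetal-Liver, with 7 factors in each (*Foxa3* included), and from 11275 to 12117 (6 to 7) in 3D-iHA against Adult-Liver. The factor counts of the cultures against Fib or a liver include factors that passed the filter through 1 condition and so had to differ. These were *Hnf4a*, *Foxa1*, *Foxa3* and *Prox1* against Fib, and *Foxa1* and *Foxa3* against either liver. The cause of the other changes was not tested. Low values, at 12 counts or fewer in each library, limit *Onecut1*, *Foxa1*, *Foxa3* and *Hnf4g* in the cultures.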

Other observations

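*Gata4*, an endoderm factor that works with the FOXA proteins in early liver, had 1945 and 1794 counts in 2D-iHepSC, 2964 and 2956 in 3D-iHA, 557 and 620 in Adult-Liver, and 5 and 4 in Fib. It was thus present in the converted cells and near the floor in the fibroblasts. *Cebpd*, an acute phase relative of *Cebpa*, had 874 and 831 counts in 2D-iHepSC, 3482 and 3214 in 3D-iHA and 126 and 148 in Adult-Liver. Unlike *Gata4*, *Cebpd* was called lower in 2D-iHepSC than in Fib. *Alb* had 210 and 9 counts in 2D-iHepSC, so the libraries of this condition differ in it.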
